A study of Homo sapiens with 48 samples.

Results

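SNX631, an inhibitor of the Mediator kinases CDK8 and CDK19, was compared with vehicle in 2 derivatives of 22Rv1 whose only re-expressed Mediator kinase cannot phosphorylate, to ask which transcripts respond to the compound without any Mediator kinase activity. 22Rv1 is a human castration-resistant prostate cancer cell line. The comparison takes 12 of the 48 libraries of the study by their titles, 6 with SNX631 and 6 with vehicle, and the line enters as a covariate. Both lines carry a CRISPR/Cas9 double knockout of CDK8 and CDK19, in the vehicle controls as well as in the treated cells. Line dKO-8M expresses a kinase-dead point mutant of human CDK8 and line dKO-19M the corresponding mutant of CDK19, each delivered by lentivirus, dKO-8M after an earlier transduction with an empty vector. Cells were kept in androgen-containing medium with FBS (fetal bovine serum) and received 500 nM SNX631 or 0.1% DMSO for 72 h, with 3 libraries per group, described by the study as biological triplicates. Lines dKO-8 and dKO-19, made from the same double knockout but with an active kinase, gave 12 further libraries of the same design for comparison. Every line is a single derivative, so an effect of a line cannot be told apart from an effect of the mutant that it carries.

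CDK8 and its paralog CDK19 are the enzymatic subunits of the Mediator kinase module, together with cyclin C (CCNC), MED12 or MED12L and MED13 or MED13L. The module docks on Mediator, the complex that links transcription factors to RNA polymerase II, and it acts on transcription both through phosphorylation and through its presence as a scaffold. A kinase inhibitor can change transcripts through its intended enzymes or through other proteins that bind it. Cells whose only re-expressed kinase is dead show which changes remain without the activity of that kinase. The protein through which such changes arise was not tested.

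The response in these lines was small. Over both kinase-dead lines, 8 of 17596 tested genes (0.0455%) passed the study's limits of FDR under 0.01 and over 1.5-fold, 1 higher (0.00568%) and 7 lower (0.0398%) with SNX631, whereas 547 of 17543 genes (3.12%) passed them in the kinase-active lines, 297 higher (1.69%) and 250 lower (1.43%). At FDR under 0.05 with no limit on fold, 366 genes (2.08%) passed in the kinase-dead lines, 81 higher (0.46%) and 285 lower (1.62%), and 5625 (32.1%) passed in the kinase-active lines. These counts rest on unlike spreads between replicates, with a biological coefficient of variation of 5.05% in the dead and 3.76% in the active lines. Without vehicle replicate 1 of dKO-19M, 1623 genes (9.06%) passed in the kinase-dead lines. The 366 changes had a median size of 1.17-fold. The 95% interval of the change lay inside 1.5-fold in either direction for 15091 genes (85.8%), which bounds the response of those genes whether or not they passed. In the kinase-active lines it did so for 14058 of 17543 genes (80.1%), so this share differs little between the 2 comparisons. Transcripts of amino acid stress and of sterol synthesis made up the groups with the largest shares of lower genes.

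Vehicle replicate 1 of dKO-19M stood apart, and it changed how many genes passed. None of the 366, which were chosen with this library in the fit, changed direction without it. Its counts differed from those of replicates 2 and 3 by chi-square values of 17.4 and 16.9 per degree, against 1.28 to 3.34 for the other 10 replicate pairs in the 4 groups. Of 11794 genes at 5 CPM or more, 105 lay over 1.5-fold from the mean of the other replicates in this library, 103 of them lower, against 0 to 8 in each of the other 11 libraries. Its deviations ran with transcript length (r = -0.601 across genes, which are not independent replicates), so that long transcripts read low. Cytosolic ribosomal protein genes, which are short, took 8.22% of its counts against 6.8% and 6.85% in replicates 2 and 3. With SNX631 the share in dKO-19M was 7.08%, 7.03% and 7.08%. In dKO-8M it was 6.05%, 6.05% and 6.12% with vehicle and 6.5%, 6.72% and 6.82% with SNX631, so it also varied with treatment. The leaning with transcript length was weaker in SNX631 replicate 1 of dKO-19M (r = -0.246). The labels name no batch, and the origin of this deviation was not tested. Totals of the 12 libraries ran from 19.27 to 31.5 M counts and did not set it apart.

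Without this library, 18 genes passed the study's limits (0.1% of 17922 tested), of which 3 were higher (0.0167%) and 15 lower (0.0837%). At FDR under 0.05 1623 passed (9.06%), of which 785 were higher (4.38%) and 838 lower (4.68%). The estimated spread between replicates fell from a biological coefficient of variation of 5.05% to 2.69%. All 8 genes of the full comparison were among the 18, and 365 of the 366 (99.7%) passed again in the same direction. These 365 made up 22.5% of the 1623. The 366 were chosen in a fit that shares 11 libraries with this one. That choice favours the same direction in advance, so the agreement is a description and not a test. TAF15 alone was lost, at -0.21 ± 0.05 (SE) on the log2 scale with FDR 0.0259 in the full comparison and at -0.22 ± 0.06 with FDR 0.0663 without the library, and no gene among the 366 changed sign. The balance of the calls did move, since 77.9% of the 366 and 51.6% of the 1623 genes were lower with SNX631. Leaving out any other library lowered the count at FDR under 0.05, to 206 without SNX631 replicate 3 of dKO-19M at the lowest. It fell by over 1.5 times also without vehicle replicates 2 or 3 of dKO-8M (223 and 237), SNX631 replicates 2 or 3 of dKO-8M (234 and 238) or SNX631 replicate 2 of dKO-19M (243).

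**Figure D1:**
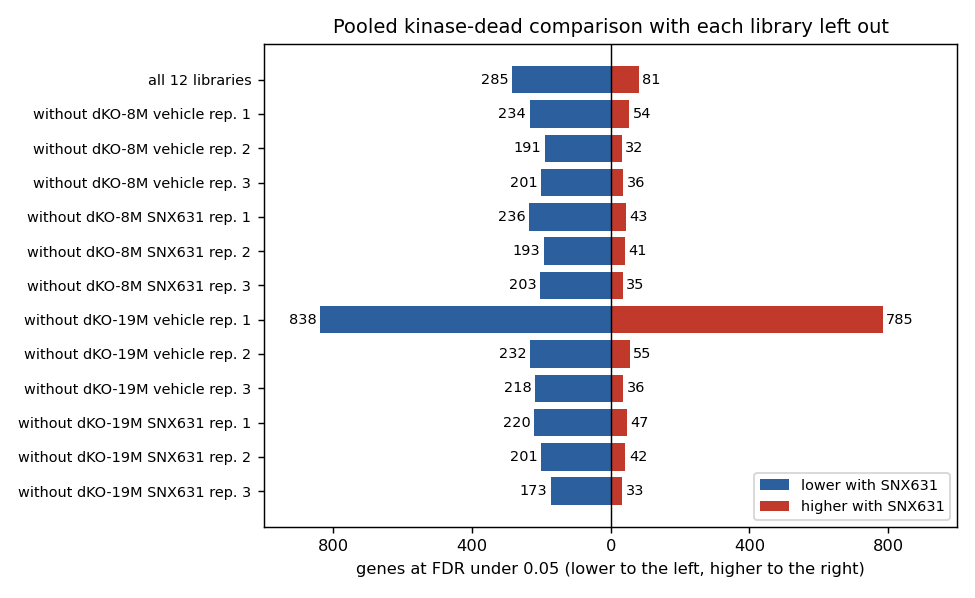
Number of genes at FDR under 0.05 in the pooled kinase-dead comparison with all 12 libraries (top bar) and with each library left out in turn. Bars to the left count genes lower and bars to the right genes higher with SNX631. Leaving out vehicle replicate 1 of dKO-19M gives 838 lower and 785 higher genes, and each other omission leaves fewer than the 285 and 81 of the full comparison.

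CPM are counts scaled to an equal library total with TMM factors. Among genes with a mean of at least 5 CPM, the pooled estimates that this library moved most were those of ZNF66, RAB39A and SLC9A3-AS1. In dKO-19M vehicle, ZNF66, a zinc finger gene, read 2.74, 7.1 and 7.14 CPM, and its pooled change was -0.11 with and -0.26 without replicate 1. RAB39A, a small GTPase of vesicle traffic, read 2.11, 4.42 and 5.54 CPM there, and its change went from 0.02 to -0.12. Neither passed FDR under 0.05 in either fit. SLC9A3-AS1, an antisense RNA, read 5.64, 9.7 and 12 CPM, and it went from -0.23 (FDR 0.539) to -0.37 (FDR 0.00369) when replicate 1 was left out.

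The targets of the compound were present as transcripts and did not pass in the pooled comparison. In the vehicle libraries of dKO-8M, CDK8 stood at 125, 118 and 125 CPM, and with SNX631 at 133, 134 and 127 CPM. For dKO-19M the values were 26.6, 27.3 and 27.5 CPM with vehicle and 27.1, 27.1 and 26.9 CPM with SNX631. CDK8 was thus high in the line that re-expresses it, and the transcript that remained in dKO-19M after the knockout was low. The dKO-8M libraries gave 124, 123 and 122 CPM of CDK19 with vehicle and 124, 123 and 125 CPM with SNX631. Those of dKO-19M gave 298, 354 and 344 CPM with vehicle and 333, 359 and 359.8 CPM with SNX631. CDK19 was highest in dKO-19M, and its transcript also remained in dKO-8M, where counts do not separate an edited allele from an intact one. The pooled changes were 0.06 ± 0.03 (SE) for CDK8 and 0.05 ± 0.04 for CDK19, with FDR 0.477 and 0.636. None of the 7 genes of the kinase module passed FDR under 0.05. CCNC, at 0.12 ± 0.04 (FDR 0.119), passed without vehicle replicate 1 of dKO-19M (0.15, FDR 0.00207). MED13, MED13L and MED12, which are long transcripts, read low in that library: MED13 stood at 108, 157 and 155 CPM in the dKO-19M vehicle libraries.

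Of the lists tested, the targets of ATF4 held the largest share of lower genes. ATF4 is the transcription factor of the integrated stress response, which cells start when amino acids run short or proteins misfold, and it raises genes for amino acid synthesis and transport, for tRNA charging and for feedback on growth. Of 32 genes of this programme tested, 21 (65.6%) fell at FDR under 0.05 and none rose, against 1.62% lower and 0.46% higher over all tested genes. Their median change was -0.194 on the log2 scale, against 0.00181 for all genes. In the single lines the medians were -0.152 in dKO-8M and -0.221 in dKO-19M. In 22 of the 32 all SNX631 libraries lay below all vehicle libraries in both lines, as in 2.42% of all genes. Without vehicle replicate 1 of dKO-19M, 28 of the 32 fell, against 4.68% of all genes in that fit, and the median was -0.167. In that replicate alone the list read 0.0822 above the mean of the other vehicle libraries of the line (median over 31 genes), against -0.0551 to 0.0718 in the other 11 libraries, and the part of this offset in the fall was not tested beyond the value without the library.

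STC2 and DDIT4 had the lowest FDR of the list. With vehicle, STC2 was at 88.3, 92 and 88.8 CPM in dKO-8M and at 117, 115 and 120 CPM in dKO-19M. With SNX631 it was at 72.4, 69.3 and 68.3 CPM and 77.2, 86.2 and 80.6 CPM, respectively. STC2 encodes stanniocalcin 2, a secreted glycoprotein induced by stress. In both lines every SNX631 library was below every vehicle library, and the pooled change was -0.45 ± 0.04 (SE) on the log2 scale, FDR 3e-06. DDIT4 read 37, 39 and 38.8 CPM with vehicle and 30.1, 29.4 and 31.8 CPM with SNX631 in dKO-8M. The dKO-19M libraries read 71.8, 68.8 and 66.8 CPM and 43.4, 42.6 and 43.4 CPM. DDIT4 (REDD1) restrains the growth kinase complex mTORC1, and hypoxia as well as ATF4 raises it. Its groups did not overlap in either line, and the pooled change was -0.52 ± 0.05 (SE) on the log2 scale, FDR 8.74e-06. TRIB3, a pseudokinase that dampens ATF4 signalling, fell by 0.30 (log2, FDR 5.63e-05). DDIT3, which encodes the stress transcription factor CHOP, changed by -0.42 ± 0.07 (SE) on the log2 scale, FDR 0.00106, with -0.21 in dKO-8M and -0.61 in dKO-19M.

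Enzymes of amino acid synthesis were also among the genes that fell. In the vehicle libraries of dKO-8M, PHGDH stood at 447, 456 and 464 CPM, and with SNX631 at 393, 374 and 367 CPM. For dKO-19M the values were 600.1, 518 and 524 CPM with vehicle and 448, 410.4 and 416 CPM with SNX631. PHGDH makes the first step of serine synthesis, and its pooled change was -0.32 ± 0.04 (SE) on the log2 scale, FDR 6.75e-05. Vehicle replicate 1 of dKO-19M was its highest library, and without it the change was -0.28 with FDR 5.49e-11. ASNS, asparagine synthetase, fell by 0.20 (FDR 0.00194), PCK2, the mitochondrial phosphoenolpyruvate carboxykinase, by 0.25 (FDR 0.00128) and GPT2, an alanine aminotransferase, by 0.19 (FDR 0.000899). The ATF4 transcript itself was at -0.13 ± 0.04, FDR 0.0889. The aminoacyl-tRNA synthetases and the tRNA export factor XPOT, which supply charged tRNA, moved less. All 13 read below 0, and 5 (38.5%) fell, among them YARS1 (-0.16, FDR 0.00433), SARS1 (-0.18, FDR 0.0137), MARS1 (-0.13, FDR 0.0224) and GARS1 (-0.13, FDR 0.034). Their number was 8 without vehicle replicate 1 of dKO-19M and 1 to 3 without each of the other libraries except SNX631 replicate 1 of dKO-19M, with 1 without SNX631 replicate 3 of that line. Counts of DDIT3, ASNS and MARS1 were fractional in over 33.3% of the 48 libraries, as counts split between features are, and their values are less certain. KLK4, FADS2, NDRG1, PFKFB4, ZNF66, BBC3 and ZBTB22, named elsewhere, share this limit.

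Sterol synthesis was the other group in which many members fell. These enzymes turn acetyl-CoA into cholesterol, and cells adjust their transcripts through SREBP2, a membrane-bound factor that is released when sterols run low. All 24 measured members read below 0 (8664 of 17596 genes did so overall), 12 (50%) fell at FDR under 0.05, against 1.62% of all genes, and none rose. The median change was -0.155, with -0.148 in dKO-8M and -0.162 in dKO-19M. In 13 of the 24 all SNX631 libraries lay below the vehicle libraries in both lines, against 2.42% of all genes. Without vehicle replicate 1 of dKO-19M, 21 of 24 fell, against 4.68% of all genes in that fit, and the median was -0.131. In that replicate the list read 0.0575 above the other vehicle libraries of the line, against -0.0361 to 0.0362 in the other 11 libraries.

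The dKO-8M libraries gave 581, 593 and 589 CPM of LSS with vehicle and 477, 453 and 443 CPM with SNX631. Those of dKO-19M gave 572, 573 and 575 CPM with vehicle and 461, 466 and 453 CPM with SNX631. LSS encodes lanosterol synthase, which closes the sterol ring. Its vehicle libraries differed by little between the lines, every SNX631 library was below all of them, and the pooled change was -0.34 ± 0.03 (SE) on the log2 scale, FDR 2.89e-06, the lowest FDR of all tested genes. With vehicle, MVD was at 273, 286 and 284 CPM in dKO-8M and at 309, 257 and 276 CPM in dKO-19M. With SNX631 it was at 220.5, 227 and 218 CPM and 215, 212 and 199 CPM, respectively. MVD decarboxylates mevalonate diphosphate, and its pooled change was -0.39 ± 0.04 (SE) on the log2 scale, FDR 8.66e-06. Vehicle replicate 1 of dKO-19M was its highest library here too, and the change was -0.35 without it. DHCR7, which makes the last reduction to cholesterol, was at -0.20 (FDR 0.000271), and CYP51A1, the lanosterol demethylase, at -0.18 (FDR 0.000899), the latter with fractional counts in all libraries. Genes of fatty acid synthesis, which share part of this control, moved less. FADS2, a fatty acid desaturase, was the 1 of 10 that fell (-0.15, FDR 0.0191), and 7 fell without vehicle replicate 1 of dKO-19M.

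The DNA elements through which these programmes are read could be looked up for part of the members. In RefSeq start sites on GRCh38.p14, the 250 bases before the start were searched on both strands for TCACNCCA, a core of the sterol regulatory element, and for TGATGNAA, a core of the amino acid response element bound by ATF4 and its partners. The sterol core was in 3 of 23 start sites (13%) of the 18 sterol genes with a sequence, against 3.2% of all 35114 start sites. The amino acid core was in 4 of 37 start sites (10.8%) of the 25 ATF4 genes with a sequence, against 3.14% of all. The 7 matches, picked by sequence and not by response, follow with 26 bases on each side, 5′ to 3′ on the gene's strand, with the match in capitals. The first 3 are sterol cores and the other 4 are amino acid cores.
MVK (chr12:109573573-109573632, + strand): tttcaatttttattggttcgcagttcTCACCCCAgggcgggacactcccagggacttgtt
MSMO1 (chr4:165327487-165327546, + strand): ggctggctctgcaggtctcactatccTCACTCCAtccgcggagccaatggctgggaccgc
SREBF2 (chr22:41832946-41833005, + strand): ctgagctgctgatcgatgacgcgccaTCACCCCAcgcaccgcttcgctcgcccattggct
ATF3 (chr1:212565190-212565249, + strand): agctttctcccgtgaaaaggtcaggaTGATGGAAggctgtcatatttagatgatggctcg
CHAC1 (chr15:40953236-40953295, + strand): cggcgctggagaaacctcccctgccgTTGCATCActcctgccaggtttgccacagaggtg
ASNS (chr7:97872443-97872502, - strand): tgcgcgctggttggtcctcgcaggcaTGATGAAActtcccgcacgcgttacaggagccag
CEBPG (chr19:33374045-33374104, + strand): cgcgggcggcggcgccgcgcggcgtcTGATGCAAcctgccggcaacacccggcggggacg
In CHAC1 the core reads on the opposite strand. The match ended 187 bases before the start in MVK, mevalonate kinase, 148 in MSMO1, a sterol oxidase, and 125 in SREBF2, which encodes SREBP2. With SNX631 MVK changed by -0.21 (FDR 0.00171), MSMO1 by -0.07 (FDR 0.285) and SREBF2 by -0.05 (FDR 0.466). The amino acid core ended 60 bases before the start of ASNS and 34 before that of CEBPG, a dimer partner of ATF4. CHAC1, a glutathione-degrading enzyme, changed by -0.36 (FDR 0.00648), ATF3, a stress transcription factor, by -0.14 (FDR 0.0486) and CEBPG by -0.10 (FDR 0.0777). Of the 7 genes, MVK, ASNS, CHAC1 and ATF3 passed, and a match of these letters is a description, not a site of binding. ACGTG, the core of the hypoxia element, was in 25 of 40 start sites (62.5%) of the 25 hypoxia-response genes with a sequence, against 18.5% of all.

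Genes past the study's limits were mostly of low abundance. NIBAN1 read 4.61, 5.11 and 5.02 CPM with vehicle and 3.33, 3.12 and 3.02 CPM with SNX631 in dKO-8M. The dKO-19M libraries read 7.97, 10.1 and 9.18 CPM and 4.52, 5.1 and 5.57 CPM. NIBAN1 encodes a stress-inducible protein kept high in many tumours. Its groups did not overlap in either line, and it changed by -0.75 ± 0.08 (SE) on the log2 scale, FDR 3.5e-05. In the vehicle libraries of dKO-8M, ADM stood at 10.8, 10.4 and 10.2 CPM, and with SNX631 at 7.85, 5.65 and 5.99 CPM. For dKO-19M the values were 7.53, 7.38 and 8.51 CPM with vehicle and 6.17, 4.58 and 5.44 CPM with SNX631. ADM encodes adrenomedullin, a vasodilator peptide raised in hypoxia, and it changed by -0.62 ± 0.09 (SE) on the log2 scale, FDR 0.000273. The dKO-8M libraries gave 4.58, 5.07 and 4.22 CPM of SLC2A6 with vehicle and 2.32, 3.2 and 2.46 CPM with SNX631. Those of dKO-19M gave 3.38, 3.19 and 3.16 CPM with vehicle and 1.86, 2.15 and 2.28 CPM with SNX631. SLC2A6 belongs to the glucose transporter family, and it changed by -0.72 ± 0.10 (SE) on the log2 scale, FDR 0.000345. In each of these 3 genes all SNX631 libraries lay below all vehicle libraries of their line. MFSD4A, a member of the major facilitator transporter family (-0.75 ± 0.10), SMIM10L2B (-0.73 ± 0.12), SCART1 (-0.71 ± 0.13, with fractional counts) and the unnamed ENSG00000261840 (-0.64) were the other genes that fell. The 1 gene that rose was MUC13, a transmembrane mucin. With vehicle, MUC13 was at 0.588, 0.507 and 0.374 CPM in dKO-8M and at 1.78, 1.5 and 1.9 CPM in dKO-19M. With SNX631 it was at 0.921, 0.706 and 0.921 CPM and 2.93, 2.67 and 2.74 CPM, respectively. Its change was 0.69 ± 0.13 (SE) on the log2 scale, FDR 0.00704, at few counts in dKO-8M. Its FDR exceeded 0.01 with the replicate block (0.0109), and with 1 library left out it was under 0.01 only without SNX631 replicate 2 of dKO-8M (0.00907) or vehicle replicate 1 of dKO-19M (0.00321). Without vehicle replicate 1 of dKO-8M it was 0.01, and no gene was called higher in that fit or in those that left out any of the others, with FDR of MUC13 up to 0.0275.

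Among genes of at least 5 CPM with FDR under 0.05, the lowest changes after NIBAN1 and ADM belonged to SERPINE2, DDIT4, DHRS2, CNKSR3, CDHR1 and STC2. SERPINE2, a secreted protease inhibitor, was almost confined to dKO-19M, where it read 46.6, 45.6 and 44.2 CPM with vehicle and 31.6, 30.3 and 30.8 CPM with SNX631, against at most 1.34 CPM in any dKO-8M library. It changed by -0.57 ± 0.06 (SE) on the log2 scale, FDR 8.14e-06. DHRS2, a dehydrogenase, read 27.6, 29 and 28.6 and then 20.9, 21.8 and 19.4 CPM in dKO-8M, and 17.7, 16.5 and 17.5 and then 11.3, 12.4 and 11.2 CPM in dKO-19M. CNKSR3, a scaffold of kinase signalling whose counts were partly fractional, was at -0.49 ± 0.05, and CDHR1, a cadherin-related receptor, at -0.45 ± 0.05.

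At the same limit of 5 CPM, the highest changes were smaller in size than the lowest. KLK4, an androgen-responsive kallikrein protease with partly fractional counts, was at 0.34 ± 0.07 (FDR 0.014) with 10.1, 9.68 and 10.4 CPM in dKO-8M vehicle and 13.4, 12.4 and 12.8 with SNX631. ZNF385B, a zinc finger gene (0.34, FDR 0.0401), and MYLK, myosin light chain kinase (0.31, FDR 0.0329), followed, but each lost its call in 10 of 27 settings, mostly when 1 library was left out, with FDR up to 0.14 and 0.0824. With the replicate block ZNF385B had FDR 0.0511. ID1 and ID4 encode inhibitors of basic helix-loop-helix factors and rose by 0.31 (FDR 0.00251) and 0.29 (FDR 0.00194). With all 48 libraries in the fit, neither passed (FDR 0.431 and 0.373). ID1 read 17, 17.2 and 17.8 CPM with vehicle and 19.3, 20.8 and 20.1 CPM with SNX631 in dKO-8M. The dKO-19M libraries read 17.2, 14.8 and 15.9 CPM and 22.7, 20.3 and 20.6 CPM. The ID1 groups did not overlap in either line, although the rise was small beside the level, and its counts were partly fractional. POF1B, an actin-binding protein, rose by 0.30 (FDR 0.0118), MGP, an inhibitor of matrix calcification, by 0.29 (FDR 0.0294, lost in 8 of 27 settings) and BASP1, a membrane-associated signalling protein, by 0.29 (FDR 0.00136).

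**Figure D2:**
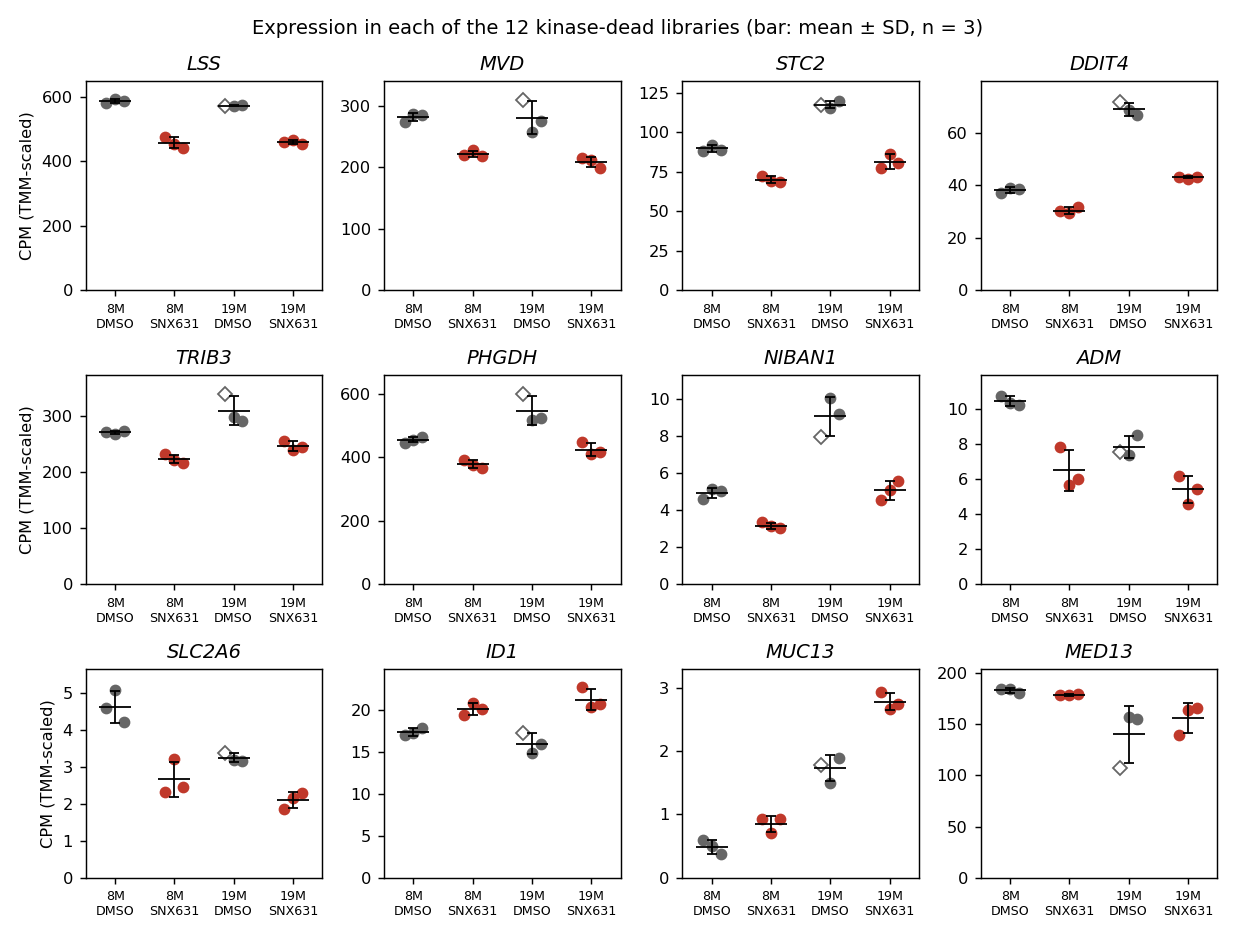
TMM-scaled counts (CPM, vertical axes from 0) of 12 genes in each of the 12 libraries, grouped as vehicle (DMSO, grey) and SNX631 (red) in dKO-8M and dKO-19M, with mean ± SD (n = 3). The open diamond is vehicle replicate 1 of dKO-19M, which reads 107.6 CPM for MED13 against 157 and 155 in the other replicates but lies near or above its group for LSS, MVD and STC2.

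The other programmes are read against 1.62% lower and 0.46% higher over all tested genes. Of 27 hypoxia-response genes tested, 6 (22.2%) fell, and the list holds DDIT4 and ADM along with PFKFB4, an enzyme that sets the rate of glycolysis (-0.30, FDR 0.000708), and NDRG1 (-0.36, FDR 0.00127). The median of the list was -0.0687. Of 21 androgen-response entries, among which HERC3 stands more than once, KLK4 and ELL2, an elongation factor (0.22, FDR 0.000355), rose. SLC45A3, the prostein gene (-0.31, FDR 0.00192), fell, and the median was 0.0204. Of 18 p53 targets, 3 (16.7%) fell: GDF15 (-0.35, FDR 0.000518), TP53INP1 (-0.28, FDR 0.00136) and BBC3 (-0.22, FDR 0.0364), of which GDF15 was also on the ATF4 list. Single members passed among glycolysis enzymes (ALDOC, -0.32, 1 of 14), immediate-early genes (DUSP1, -0.24, 1 of 14) and interferon-response genes (IFIH1, 0.28, 1 of 15). These calls were not firm: ALDOC lost its call in 9 of 27 settings, including the replicate block (FDR 0.0895), IFIH1 in 7 and DUSP1 in 5, mostly when 1 library was left out, and BBC3 in 9 of 26. No member passed among 19 endoplasmic reticulum chaperones, 20 MYC targets, 20 genes of cell division, 18 of DNA replication, 16 of heat shock, 15 NRF2 targets, 9 NF-kB targets, 6 targets of xenobiotic receptors and 3 metallothioneins. Without vehicle replicate 1 of dKO-19M, where 4.38% of all genes were higher and 4.68% lower, some of these lists gained members. Cell division then had 4 higher and 2 lower, heat shock and MYC targets 4 higher each, endoplasmic reticulum chaperones 2 higher and 1 lower, and DNA replication 2 higher and 1 lower. NRF2 targets had 1 higher and 2 lower, and metallothioneins 1 higher.

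Basal, immune and stromal markers summed to at most 0.457, 1.59 and 7.5 CPM in any of the 12 libraries, and neuroendocrine markers, mostly SYP, to 32.3 to 48.2 CPM. TP63, KRT5 and KRT14, which define basal cells, were too low to be tested. In bulk RNA, fewer cells of a kind and less RNA per cell cannot be told apart.

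**Figure D3:**
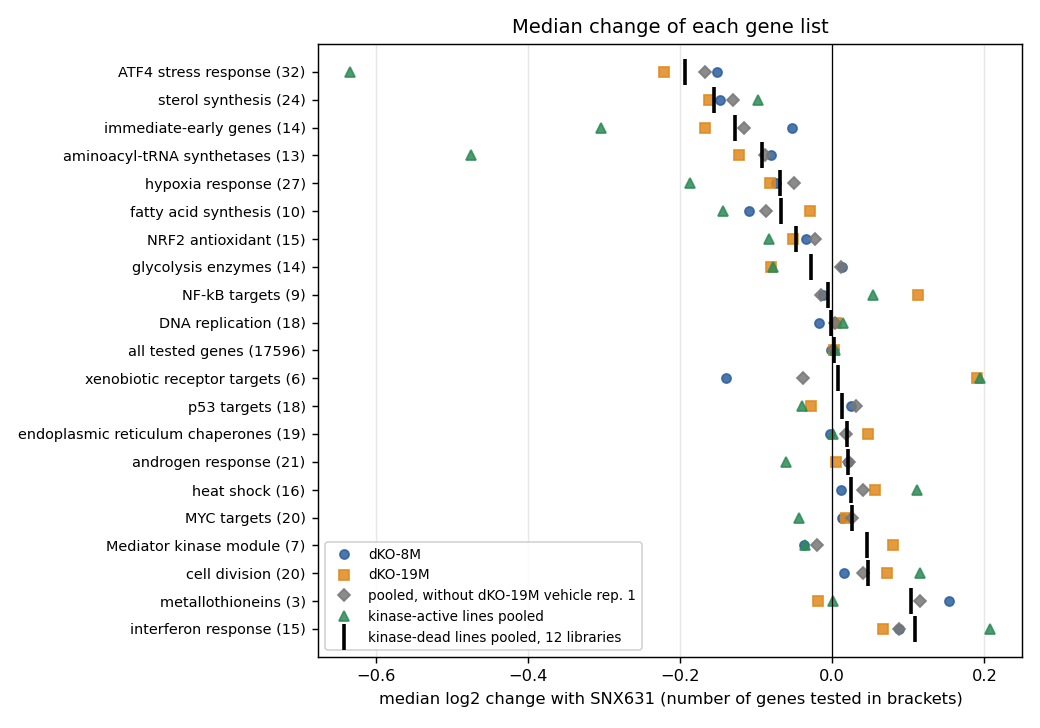
Median log2 change with SNX631 for each gene list (rows, with the number of genes tested) in dKO-8M, dKO-19M, the pooled kinase-dead comparison with all 12 libraries (black bars) and without vehicle replicate 1 of dKO-19M (grey), and the kinase-active lines (triangles). The ATF4 list lies at -0.194 in the pooled comparison and at -0.634 in the kinase-active lines, and sterol synthesis at -0.155 and -0.0983.

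With all libraries, the SNX631 effect differed between the 2 kinase-dead lines past the threshold for no gene. In dKO-8M alone, edgeR called 0 genes (0%) by the study's limits and 61 (0.347%) at FDR under 0.05, 4 higher (0.0227%) and 57 lower (0.324%), with 1588 at an unadjusted p under 0.05. In dKO-19M alone 11 (0.0625%), all lower, and 209 (1.19%) passed, the latter 37 higher (0.21%) and 172 lower (0.977%). In dKO-19M the deviations of same-numbered vehicle and SNX631 libraries correlated at 0.168 to 0.436. Replicates 2 and 3 did so across numbers too (0.229 and 0.263), and replicate 1 of either arm ran against them (-0.393 to -0.236). With the replicate number as a block the counts of dKO-19M were 17 and 433. The 61 of dKO-8M became 8 without its SNX631 replicate 3 and between 9 and 15 without any other library of that line, and the 209 of dKO-19M became 74 without its SNX631 replicate 3 and 101 without its SNX631 replicate 2. In edgeR's test of the difference between the lines 0 genes (0%) passed either rule, with 1158 at an unadjusted p under 0.05, among 17596. By p the leading genes were ALDOC, an aldolase (-0.06 in dKO-8M, -0.61 in dKO-19M, difference FDR 0.281), NDRG1, a growth suppressor raised in hypoxia (-0.18 and -0.54, FDR 0.329), ZBTB22 (-0.07 and -0.49), DDIT4 (-0.33 and -0.68) and GK5, a glycerol kinase (-0.13 and 0.25).

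The calls in each line, and between them, depended on the outlying library. Without it 727 genes (4.06%) passed FDR under 0.05 in dKO-8M and 705 (3.93%) in dKO-19M, although the library belongs to dKO-19M, because both lines share the estimate of spread. The difference between the lines then passed for 21 genes (0.117%), against 5 without SNX631 replicate 1 of dKO-19M and 1 without its SNX631 replicate 2. Of the 21, 7 had a higher and 14 a lower SNX631 effect in dKO-19M than in dKO-8M. POMK, a kinase of muscle glycan synthesis, was among the 7 (0.51 ± 0.08, FDR 0.00433), and the unnamed ENSG00000273149 alone passed the study's limits (-1.02 ± 0.16, FDR 0.00818). Of the genes that also led with all libraries, those that passed were NDRG1 (difference dKO-19M minus dKO-8M of -0.39 ± 0.06, FDR 0.000806), ALDOC (-0.50 ± 0.09, FDR 0.0117), DDIT4 (-0.33 ± 0.07, FDR 0.0288) and ZBTB22 (-0.39 ± 0.08, FDR 0.0242), all with the larger fall in dKO-19M. FOLH1, which encodes the surface antigen PSMA, read 14.8, 15.4 and 14.6 CPM with vehicle and 9.1, 10.1 and 10.6 CPM with SNX631 in dKO-19M (-0.59, FDR 0.000581). In dKO-8M it read 19.1, 16.5 and 16.7 and 15.7, 15.7 and 16.4 CPM (-0.14, FDR 0.603), and the difference between the lines had an FDR of 0.561. FGF11, a hypoxia-induced member of the fibroblast growth factor family, read 2.16, 2.24 and 2.14 CPM and then 1.23, 1.16 and 1.18 CPM in dKO-8M, and 1.37, 1.81 and 1.86 and then 1.7, 1.5 and 1.69 CPM in dKO-19M. Its pooled change of -0.45 had FDR 0.138, and its counts were mostly fractional.

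The same contrast in the kinase-active lines showed how much of their response remained. Of 514 genes past the study's limits in dKO-8 and dKO-19 and tested in both comparisons, 237 were lower there, and of these 50 (21.1%) also fell in the kinase-dead lines at FDR under 0.05 and 0 rose. Their median was -0.819 in the active and -0.174 in the dead lines. Of the 277 that were higher there, 18 (6.5%) rose and 3 fell in the dead lines, with medians of 0.922 and 0.0669. The shares over all 17163 genes tested in both were 1.65% lower and 0.472% higher. The slope of the kinase-dead on the kinase-active change was 0.122 over the 514 genes (r = 0.484, a description across genes).

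In edgeR's test of the difference between the kinase-dead and the kinase-active effect, which shares no library between its arms, 341 of 18179 genes (1.88%) passed the study's limits, 128 with the higher value in the dead lines (0.704%) and 213 with the lower (1.17%). At FDR under 0.05 2456 passed (13.5%), 1351 higher (7.43%) and 1105 lower (6.08%). For the ATF4 programme the active lines fell further: the median was -0.634 there, and the difference passed for 27 of 32 genes, each with the higher value in the kinase-dead lines. ASNS fell by 0.20 in the dead and 1.19 in the active lines (difference 0.99 ± 0.04, FDR 3.25e-18). STC2 fell by 0.45 and 0.81 (difference 0.37 ± 0.06, FDR 2.14e-05). The synthetases fell by a median of 0.475 in the active lines, and 12 of 13 differed.

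In sterol synthesis the order varied by gene. In the active lines 11 of 24 genes fell, against 16.3% of all genes, and the median was -0.0983. The difference passed for 7 genes, 4 lower in the kinase-dead lines (LSS, MVD, HSD17B7 and SC5D) and 3 lower in the active lines (HMGCS1, INSIG1 and SREBF2). LSS was at -0.34 ± 0.03 in the dead and -0.08 ± 0.06 in the active lines (difference -0.26 ± 0.06, FDR 0.00268). MVD was at -0.39 ± 0.04 and 0.16 ± 0.09 (difference -0.54 ± 0.09, FDR 0.000193). The active values pool dKO-8 and dKO-19, with a larger SE for both genes, and whether these lines responded alike was not tested.

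Of the 284 genes that fell in the dead lines and were tested in both, 152 also fell in the active lines at FDR under 0.05, 107 did not pass there and 25 rose. Over all genes 16.3% fell and 15.8% rose in the active lines. For the 81 that rose these numbers were 48 higher, 33 not passing and 0 lower. The difference itself passed for 145 of the 284, against 13.5% of all genes: in 69 the active lines fell further, in 62 their estimate was above 0, and in 14 the dead lines fell further. The 284 were chosen by their fall in the dead libraries, which also enter the difference. That choice itself favours a high share, so the 13.5% is not a like reference. MFSD2A, a lysophospholipid transporter, had the lowest FDR of the difference among the 25. In the vehicle libraries of dKO-8M, MFSD2A stood at 20.7, 19.2 and 18.4 CPM, and with SNX631 at 14.1, 14.4 and 13.9 CPM. For dKO-19M the values were 18.2, 17.7 and 16.7 CPM with vehicle and 14.5, 14.3 and 12 CPM with SNX631. It fell in the dead lines (-0.42 ± 0.05 (SE) on the log2 scale, FDR 0.000159) and rose in the active ones (1.35 ± 0.05). SLC2A6 (-0.72 and 0.48) and HES7, a transcriptional repressor (-0.15 and 0.84), were also opposite. ADM, at -0.62 in the dead lines, was at -0.14 ± 0.09 in the active ones (FDR 0.234; difference FDR 0.00952).

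**Figure D4:**
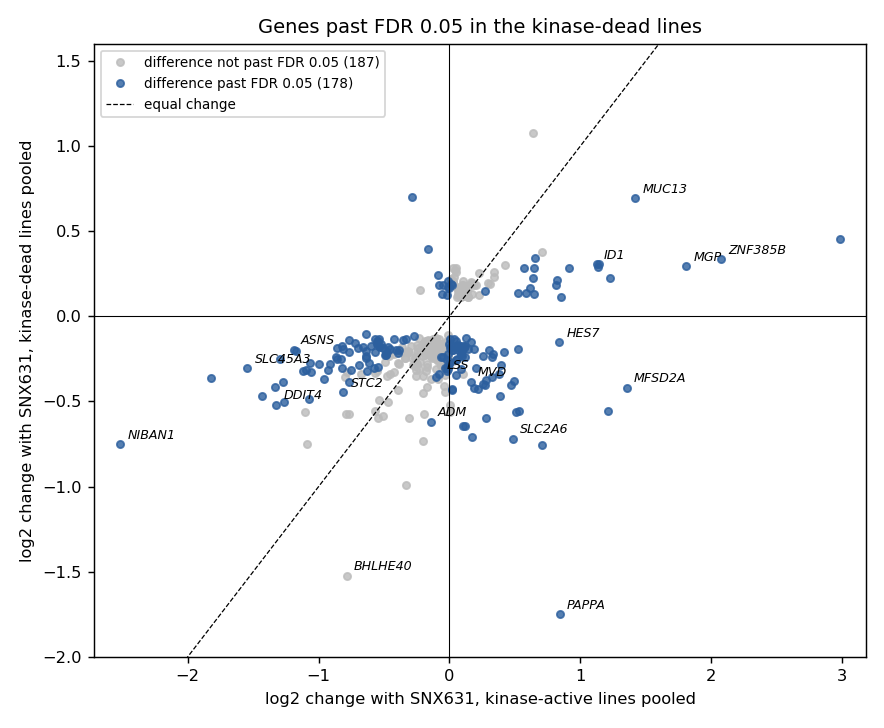
Log2 change with SNX631 in the kinase-dead lines (vertical axis) against the kinase-active lines (horizontal axis) for the 365 genes past FDR 0.05 in the kinase-dead lines and tested in both. Blue points are the 178 genes whose 2 effects differed at FDR under 0.05, grey points the other 187, and the dashed line marks equal change. MFSD2A, SLC2A6 and HES7 are among the points that lie below 0 on the vertical and above 0 on the horizontal axis.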

How the data were processed

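RNA-seq of total RNA was made with a directional kit in 48 libraries, of which 12 form the comparison. The authors deposited 1 table of 61817 entries by library. Its values are expected counts, deposited unscaled by depth: 81.6% of nonzero values are whole, and the others are fractional. Submitters' processing notes name FastQC, cutadapt 2.8, STAR 2.7.2b, featureCounts, Subread 2.0.3 and the builds GRCh38.p13 and GRCm39, with no roles, and the annotation release is not given in the sources used here. Counts were rounded. The transgenes FfLuc and BlastR (2 entries) were left out.

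Fits used R 4.3.3 and edgeR 4.0.16 (limma 3.58.1 for voom, DESeq2 1.42.0 as an alternative): filterByExpr (minimum count 10, minimum total 15), TMM factors, the robust quasi-likelihood F-test, two-sided, with line as covariate (9 residual degrees of freedom) and Benjamini-Hochberg FDR over all tested genes. Lines alone and their difference came from 4 group means in the same 12 libraries, and the dead against active difference from 24 libraries. CPM values use TMM factors of all 48 libraries. Calls follow the study (FDR under 0.01, over 1.5-fold), and lists are counted at FDR under 0.05. Log2 changes are SNX631 over vehicle with their SE. Genes named were every symbol past the study's limits, the 8 highest and 8 lowest at 5 CPM and FDR under 0.05, the 4 lowest p of each list, the 5 of each difference, the kinase module, ADM, SLC2A6, FGF11, DDIT3, FOLH1, DDIT4 and the 3 most moved by the outlying library. Genes with a promoter match, HSD17B7, SC5D, HMGCS1, INSIG1, ENSG00000261840, ENSG00000273149, POMK, TAF15 and the ATF4 transcript lie outside that rule and were named after their values or sequences were known. Members and gene lists were chosen with earlier results of these data known. The summed luminal marker list is not reported here.

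The fit was tested on counts simulated from its own model with known changes. Of 50 genes set at 1.25-fold, 72% passed FDR under 0.05, and of 50 at 1.5-fold, 60% passed the study's limits. The changed genes were drawn from those with a fitted mean of at least 50 counts, so these shares do not cover less abundant genes. Of 17228 unchanged genes, 11 passed FDR under 0.05. These counts held no deviation of a library with transcript length, and changes under 1.25-fold were not simulated. P-values measure the spread between the deposited triplicates. Replicate numbers did not pair the pooled samples: correlations of same-numbered deviations were 0.168 to 0.436 in dKO-19M, where all 3 exceeded 0.1, but -0.121 to -0.0309 in dKO-8M. Alternatives covered normalization, filters, tools, libraries in the fit, weights, depth, rounding and each library left out.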

Additional observations from a re-analysis of the deposited data

Results flagged for a closer look

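These results differed between the kinase-dead and the kinase-active lines in edgeR's test of the difference (kinase-dead minus kinase-active effect of SNX631, log2, FDR under 0.05). Groups of 3 libraries are too small for a check of single outlying values. By this test 341 genes passed the study's limits and 2456 passed FDR under 0.05.

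Genes that fell less in the dead lines were NIBAN1 (1.77), SLC45A3 (1.24), PCK2 (1.04), ASNS (0.99), DDIT3 (0.92), DDIT4 (0.80), DHRS2 (0.76), GPT2 (0.68), CNKSR3 (0.59), SARS1 (0.48), GARS1 (0.41), STC2 (0.37), YARS1 (0.37), PHGDH (0.31), MARS1 (0.29), TRIB3 (0.27) and BBC3 (0.26). PCK2, ASNS, DDIT3, DDIT4, GPT2, STC2, PHGDH and TRIB3 are ATF4 targets, and SARS1, GARS1, YARS1 and MARS1 are synthetases.

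Genes that rose less in the dead lines were ZNF385B (-1.74), MGP (-1.51), MYLK (-0.83), ID4 (-0.83), ID1 (-0.81), MUC13 (-0.72), ELL2 (-0.41), BASP1 (-0.36) and KLK4 (-0.31). Genes that fell in the dead lines with no fall of that size, or a rise, in the active lines were MFSD2A (-1.77), SLC2A6 (-1.20), HES7 (-0.99), SCART1 (-0.88), MVD (-0.54), ADM (-0.47), FOLH1 (-0.39) and LSS (-0.26).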

How the results depend on the processing

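None of the 50 named genes that passed FDR under 0.05 changed sign in any of the 27 settings in which it was tested, 26 for genes with fractional counts, and 31 passed in every setting in which they were tested. The settings reuse libraries of the main fit, in which these genes were chosen. The call was lost in 8 to 10 settings for ZNF385B, MYLK, ALDOC, BBC3, GARS1, MGP and ZBTB22, in 4 to 7 for IFIH1, DUSP1, MARS1 and FADS2, and in 1 or 2 for KLK4, ASNS, ID1, ID4, NDRG1, PCK2, PFKFB4 and SARS1. Against 8 genes past the study's limits and 366 at FDR under 0.05, the pooled counts were 14 past the limits with 4 group means, 27 and 565 with no filter on low counts, 19 and 686 with all 48 libraries, 21 and 958 with 24 libraries, and 25 and 1572 with voom quality weights, which gave the outlying library a weight of 0.134. Tested against 1.5-fold, 0 genes passed, and with no fold limit 366 did. The next 2 alternatives were added after seeing the data: offsets for transcript length and GC content gave 19 and 711, and leaving out replicate 1 of dKO-19M in both arms gave 22 and 1811. Sterol genes lower, 12 of 24, became 22 with voom weights, 19 with offsets and 22 without replicate 1 of both arms, and synthetases, 5 of 13, became 8 with 24 libraries, 9, 10 and 10. DESeq2, other scalings, thinning and omission of genes with fractional counts kept both pooled counts within 1.5 times. With 48 libraries, dKO-8M alone gave 3 and 97, dKO-19M alone 18 and 484, and their difference 1 at FDR under 0.05.

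With each library left out in turn, the pooled comparison ranged from 7 to 18 genes past the limits and from 206 to 1623 at FDR under 0.05. The ranges were 0 to 11 and 8 to 727 in dKO-8M alone, 6 to 16 and 74 to 705 in dKO-19M alone, and 0 to 4 and 0 to 21 for their difference. They were 16 to 28 for ATF4 targets lower, 1 to 8 for synthetases and 9 to 21 for sterol genes, 492 to 563 and 5061 to 5356 in the active lines, and 299 to 360 and 2207 to 3401 for the dead against active difference.

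With the replicate number as a block, the pooled comparison gave 9 and 456, dKO-8M alone 3 and 119, dKO-19M alone 17 and 433, their difference 0 and 3, the active lines 457 and 4600, and the dead against active difference 292 and 2212. The block changed no pooled count by over 1.5 times. In dKO-19M not every library correlated best with its own number: vehicle replicate 3 did so with SNX631 replicate 2 (0.263, against 0.168 with replicate 3).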
